A study of Mus musculus with 4 samples.

Results

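The genes described here are the neurotrophins Bdnf and Ntf3, the Trk receptors Ntrk2 and Ntrk3, and the VPS10-domain receptors Sort1, Sorcs1, Sorcs2 and Sorcs3, in nuclei of mouse hippocampus. They were taken by symbol from the count matrices, where all 8 are present among 32285 genes. The study compared mice trained in active place avoidance, a spatial task in which a mouse learns to stay away from a shock zone, with untrained controls. Tissue of 2 trained mice and 2 untrained mice gave a library each. Values are given in the order Trained replicate 1, Trained replicate 2, Untrained replicate 1, Untrained replicate 2. All mice, the controls included, were ArcCreERT2::eYFPflx, a genotype in which an Arc-driven inducible Cre tags active neurons with eYFP. Tissue was taken 3 days after the last memory test and without a new recall, per the design text. Nuclei with the tag were not separated here.

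Neurotrophins are secreted growth factors made as precursors that are cleaved to the mature form. Mature BDNF acts mainly through the tyrosine kinase TrkB (Ntrk2) and NT-3 (Ntf3) mainly through TrkC (Ntrk3), while the precursors can bind sortilin-family receptors together with p75. In the hippocampus BDNF is known for its part in synaptic plasticity, and the dentate gyrus and its mossy fibres are known for a high BDNF content. Sortilin-family receptors also sort cargo inside the cell, Trk receptors included.

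Bdnf is transcribed from several promoters, each with its own first exon, and the 3' counts sum them, so the level of a single promoter was not measured. RefSeq (GRCm38.p6) gave 7 start sites for Bdnf, 2 for Ntf3 and 1 each for Ntrk2, Sorcs1 and Sorcs3. The 250 bases before each start were searched on both strands for the core of the cAMP response element, CGTCA or TGACG on the other strand, which overlaps the whole element TGACGTCA. Of the 12 windows, 1 held the core, window 3 of Bdnf, where it lay 31 bases before the start. Among all 32851 windows of this length, 17.8% held the core and 1.55% the whole element, which none of the 12 held. Windows 1 and 3 of Bdnf are shown because the core is in one and not in the other, with its bases in capitals, 5′ to 3′ on the plus strand (chr2:109674450-109674699 and chr2:109692186-109692435, GRCm38.p6).
Bdnf window 1: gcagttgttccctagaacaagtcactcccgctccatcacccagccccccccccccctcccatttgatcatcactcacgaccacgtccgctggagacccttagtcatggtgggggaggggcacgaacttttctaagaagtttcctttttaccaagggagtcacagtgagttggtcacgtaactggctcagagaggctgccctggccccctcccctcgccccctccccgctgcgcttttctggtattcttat
Bdnf window 3: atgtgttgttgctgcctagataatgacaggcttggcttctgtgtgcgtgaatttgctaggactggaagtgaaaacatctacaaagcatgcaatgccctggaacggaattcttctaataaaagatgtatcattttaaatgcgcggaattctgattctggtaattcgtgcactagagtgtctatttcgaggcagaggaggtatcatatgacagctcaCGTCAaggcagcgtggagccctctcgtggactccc

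Barcodes with at least 600 UMIs were taken as nuclei, which left 6019, 12206, 16916 and 11969 (47110 in all). Each library's total was between 23155826 and 39749125 UMIs. Trained replicate 1 was the shallowest, with a median of 736 UMIs per nucleus against 887 to 1079 in the others. Nuclei were clustered without the 8 genes and named from markers, and a class was tested where every library held at least 30 nuclei. This left dentate granule (7448 nuclei), CA1 (7147), CA2 (637) and CA3 pyramidal (3848), inhibitory (3451) and thalamic excitatory neurons (2769), oligodendrocytes (1415) and astrocytes (972, of which 34 in Trained replicate 1). Levels are given as CPM, the UMIs of a gene per 1000000 UMIs of the class in a library. In each class its own markers stood highest relative to all nuclei, except in CA2, where CA2 markers summed to 872 CPM against 479 in all nuclei and CA3 markers to 2490 against 1249. The thalamic class shows that the dissection held tissue from outside the hippocampus. Between 25.8% and 41.2% of nuclei per library stayed unnamed, and 17 to 65 barcodes were shared by a pair of libraries.

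Bdnf was a rare transcript, highest in dentate granule nuclei. Its level there was 74.7, 63.1, 64.9 and 53.5 CPM, from 417 UMIs in all. In CA3 it was 65.6, 31.9, 60.7 and 35.3 CPM, and in CA1 51.9, 43.1, 42.8 and 39.9 CPM. The mean over libraries was thus 64.0 ± 8.66 (SD, n = 4) in dentate granule, 48.4 ± 17.2 in CA3 and 44.4 ± 5.21 in CA1. Dentate granule was above CA3 in 4 of 4 libraries, although their ranges overlapped, and CA1 did not overlap it. Inhibitory (25.9 ± 4.50), CA2 (26.3 ± 3.09) and thalamic nuclei (20.1 ± 11.3) held less, with ranges that overlapped each other, and oligodendrocytes 27.9 ± 13.9. The astrocyte mean of 44.9 rested on 3 UMIs in Trained replicate 1 and was 18.9 without it.

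Ntf3, the second neurotrophin, was found mainly in CA2 and dentate granule nuclei. In dentate granule it was 54.1, 49.6, 68.0 and 51.4 CPM from 387 UMIs, and in CA2 35.6, 39.2, 74.0 and 78.4 CPM, from 45 UMIs. These overlapped in range, and their means were 55.8 ± 8.35 and 56.8 ± 22.5. CA3 held 8.29 ± 1.63 CPM and inhibitory nuclei 13.9 ± 4.70, so that no library of either reached the lowest dentate granule library. In CA1 the level was 16.5 CPM in Trained replicate 1 but 3.51 to 3.63 in the other libraries, with a mean of 6.81 that fell to 3.56 without that library. Thalamic nuclei of Trained replicate 2 held no UMI of Ntf3, which allows up to 4.52 CPM (3 counts). After thinning every nucleus to 600 UMIs, 2.55% to 3.75% of dentate granule nuclei held an Ntf3 UMI against 0.132% to 1.03% in CA1. Without thinning the shares were 3.83% to 5.82% and 0.317% to 1.21%, at median depths of 688.5 to 917 and 683.5 to 1143.5 UMIs.

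**Figure D1:**
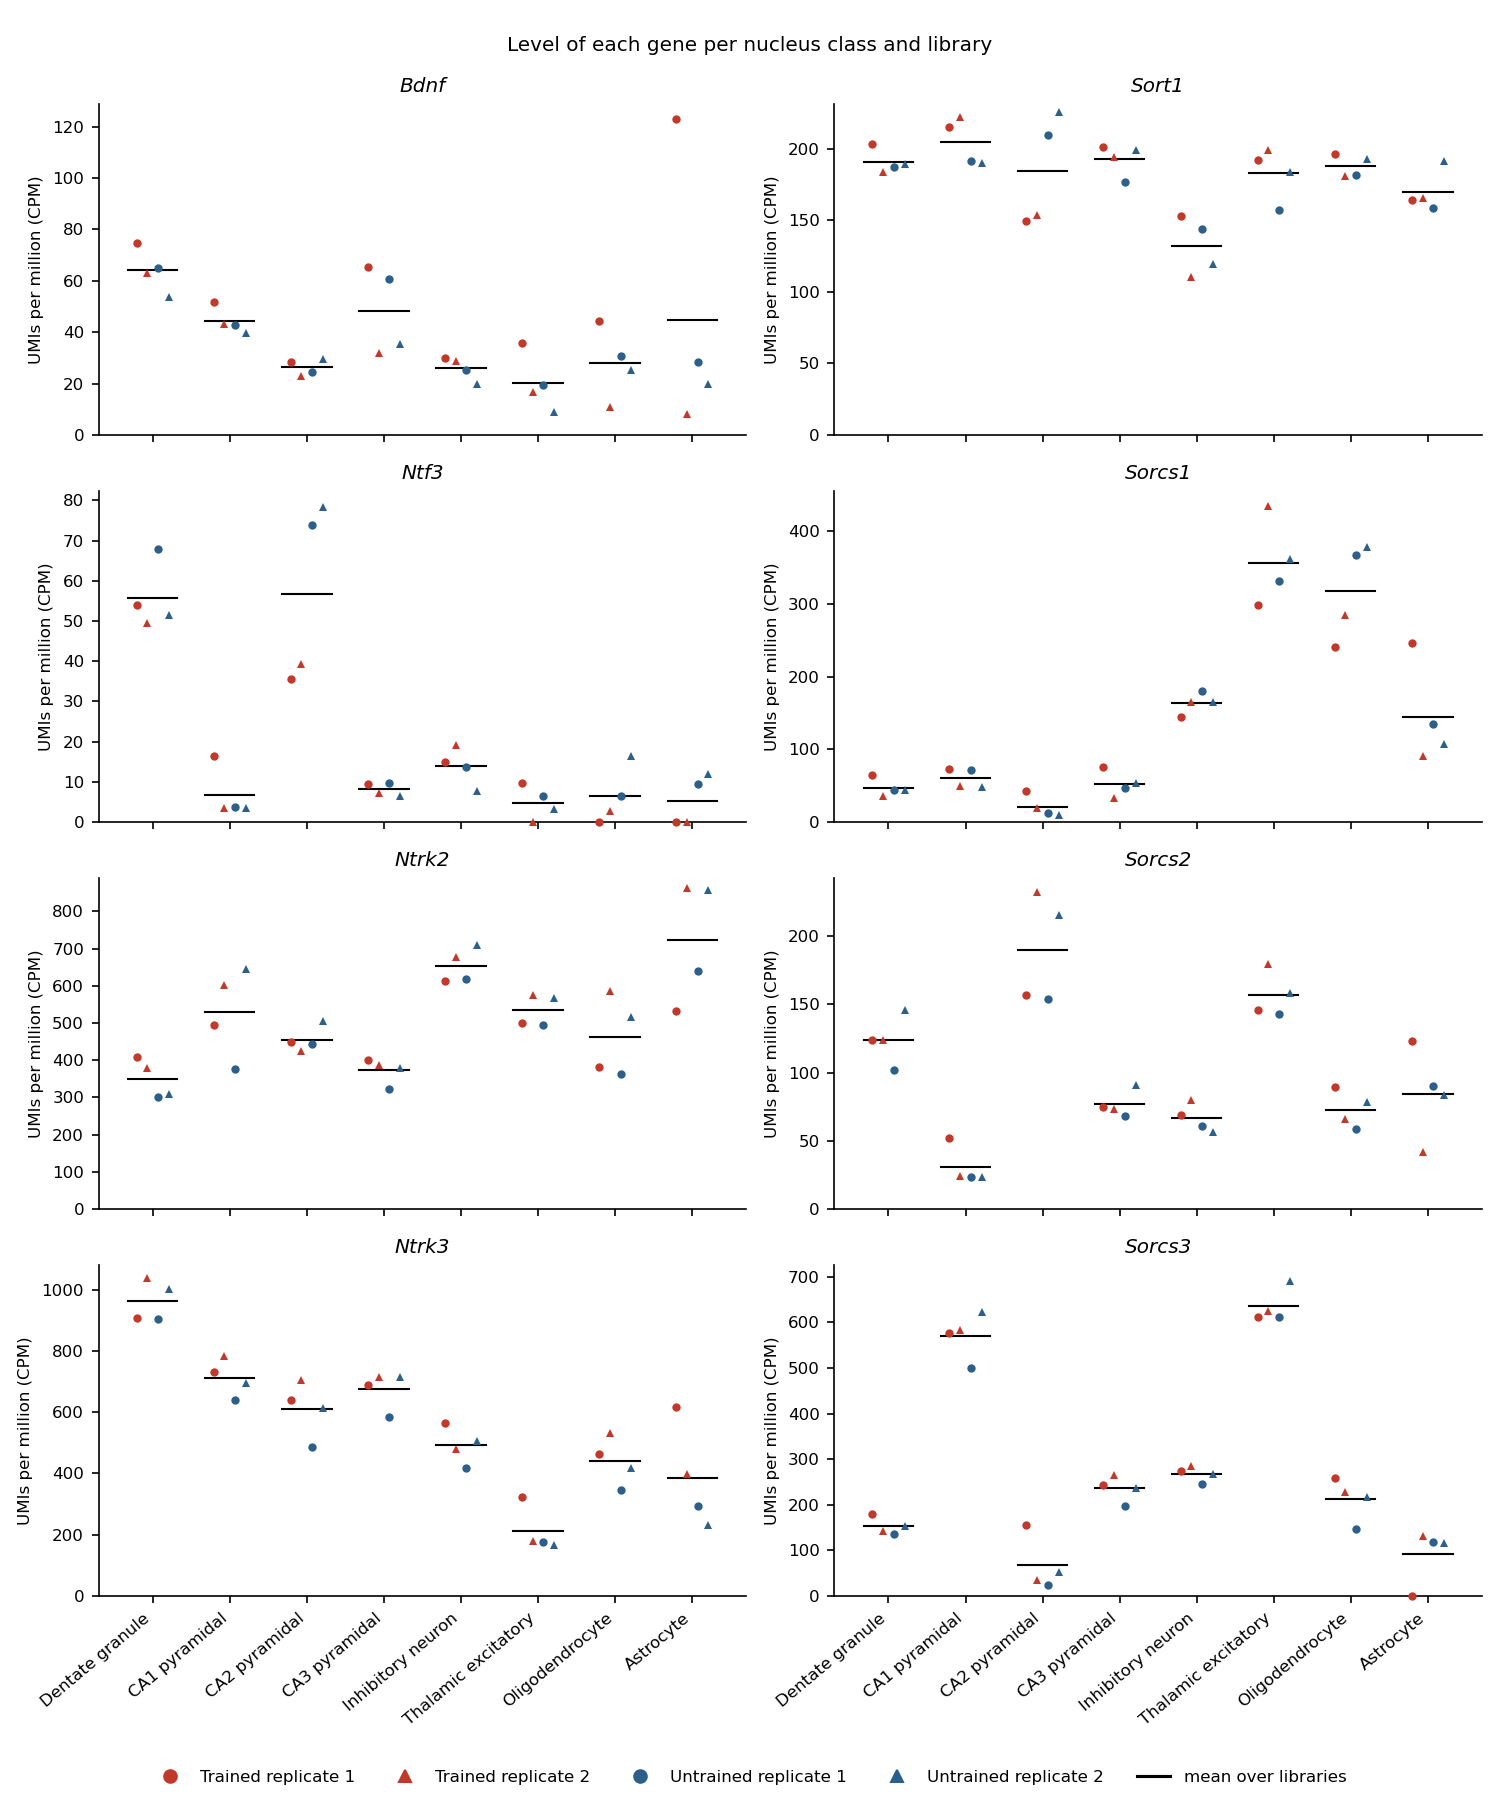
Level of each gene in CPM of the class (vertical axis, linear from 0) in 8 classes of nuclei; points are single libraries, bars their mean. Ntf3 stands high in dentate granule and CA2 nuclei, Sorcs1 in thalamic nuclei and oligodendrocytes, and the single high Bdnf point in astrocytes is 3 UMIs.

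Ntrk2, which encodes TrkB, was detected in every class, with means from 349 to 723 CPM. In astrocytes, which mainly carry a receptor form without the kinase that counts summed per gene do not separate, it was 533, 862, 640 and 856 CPM. Inhibitory nuclei followed with 613, 676, 619 and 710 CPM, a mean of 654 ± 46.7 that did not overlap thalamic nuclei (534 ± 42.3). Oligodendrocytes (462 ± 107) and CA2 (455 ± 34.5) lay lower. CA1 held 530 ± 120 CPM, with 377 in Untrained replicate 1 and 647 in Untrained replicate 2, so its range overlapped that of each of the other tested classes. The lowest classes were CA3 (373 ± 34.2) and dentate granule (349 ± 52.8), whose ranges overlapped. Outside the named classes, an unnamed cluster of 1599 nuclei held 844, 1127, 509 and 1394 CPM. Its mean of 969 was above that of astrocytes.

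Ntrk3, which encodes TrkC, was highest in dentate granule nuclei, the class lowest in Ntrk2. It was 909, 1036, 904 and 1001 CPM there, above every library of every other class. CA1 (712 ± 60.6), CA3 (677 ± 63.2) and CA2 (611 ± 91.5) followed with overlapping ranges, then inhibitory nuclei (492 ± 60.2) oligodendrocytes (440 ± 78.3) and astrocytes (385 ± 169). Thalamic nuclei held 324 CPM in Trained replicate 1 and 167 to 181 in the other libraries. Cortical excitatory nuclei, which reached 30 nuclei in 3 libraries only, held the lowest level at 107 ± 21.1 (n = 3).

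Sort1, the gene of sortilin, was the most even of the 8. Its mean lay between 170 and 205 CPM in 7 of the 8 tested classes and at 132 ± 20.1 in inhibitory nuclei. In CA1, where it was highest among these, it was 215, 222, 191 and 190 CPM.

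The 3 Sorcs genes encode sortilin-related receptors. Among the tested classes Sorcs1 and Sorcs3 had their highest mean in thalamic nuclei and Sorcs2 in CA2. Sorcs1 was 299, 434, 332 and 361 CPM in thalamic nuclei and 241, 285, 367 and 378 CPM in oligodendrocytes, ranges that overlapped, and 462 ± 94.1 (n = 3) in oligodendrocyte precursors. Inhibitory nuclei held 164 ± 14.9 CPM, and dentate granule, CA1 and CA3 nuclei 47.1 to 60.4 on average. CA2 held 21.1 ± 15.0 from 16 UMIs, a mean that was 13.9 without Trained replicate 1. Astrocytes held 145 ± 69.8. Sorcs2 was highest among the tested classes in CA2 (156, 232, 154 and 216 CPM) and thalamic nuclei (156 ± 16.7), and was 124 ± 18.1 in dentate granule. Astrocytes (84.6 ± 33.5), CA3 (76.8 ± 10.0), oligodendrocytes (72.9 ± 13.5) and inhibitory nuclei (66.6 ± 10.1) held less. In CA1 it was 51.9 CPM in Trained replicate 1 and 23.4 to 24.0 in the others. Sorcs3 was 611, 626, 613 and 691 CPM in thalamic and 576, 584, 500 and 623 CPM in CA1 nuclei, and no library of another class reached these. Inhibitory nuclei held 268 ± 17.0, CA3 236 ± 27.9, oligodendrocytes 213 ± 46.8 and dentate granule 153 ± 19.6 CPM. CA2 held 156 CPM in Trained replicate 1 but 24.7 to 53.9 in the others, with a mean of 67.7 that was 38.2 without that library. Astrocytes of Trained replicate 1 held no Sorcs3 UMI, which at their depth allows up to 123 CPM.

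Differences between classes were tested on nuclei gated one by one on markers, none of which is one of the 8 genes, with the library as a block (edgeR quasi-likelihood, Benjamini-Hochberg over 7721 genes). The gate left 1205 dentate granule, 1720 inhibitory, 442 oligodendrocyte and 905 thalamic nuclei, so CA1, CA2 and CA3 were not part of this test. Trained replicate 1 held 45, 141, 33 and 65 of these. The p-values of this fit equal those of a normal distribution for the difference over its SE. They therefore take little account of how a gene's own difference spread over 4 libraries. Of 48 differences (8 genes, 6 pairs of classes), 34 passed an adjusted p of 0.05. Between dentate granule and inhibitory nuclei all 8 genes differed, where 26.1% of all genes did. For dentate granule against thalamic nuclei 6 of 8 passed beside 35.6% of all genes, and against oligodendrocytes 5 of 8 beside 22.5%. For inhibitory nuclei 7 of 8 differed from thalamic nuclei beside 27.6%, and 3 of 8 from oligodendrocytes beside 19.6%. Between oligodendrocytes and thalamic nuclei 5 of 8 passed beside 30.3%.

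The ligands and TrkC were higher in gated dentate granule nuclei. Bdnf exceeded inhibitory nuclei by 1.23 on the log2 scale (SE 0.28, adjusted p = 7.05e-05) and thalamic nuclei by 1.51 (SE 0.32, adjusted p = 2.10e-05), in 4 of 4 libraries each. In Trained replicate 1 this order rested on 2 Bdnf UMIs in dentate granule, 4 in inhibitory and 2 in thalamic nuclei. With 1 library left out the differences were 1.05 to 1.47 and 1.37 to 1.70. Against oligodendrocytes the Bdnf difference was 0.32 (SE 0.35, adjusted p = 0.597), but 1.37 (adjusted p = 1.54e-06) between the clusters. Ntf3 exceeded inhibitory nuclei by 1.98 (SE 0.30), oligodendrocytes by 3.20 (SE 0.55) and thalamic nuclei by 3.59 (SE 0.43), with a largest adjusted p of 8.28e-08. Ntrk3 was higher than in thalamic nuclei by 2.68 (SE 0.14, adjusted p = 3.95e-79), the widest gap of the Trk receptors.

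Ntrk2, Sorcs1 and Sorcs3 were lower in dentate granule nuclei than in neurons of the inhibitory and thalamic classes. Ntrk2 was lower in dentate granule than in inhibitory nuclei by -1.10 (SE 0.12) and than in thalamic nuclei by -0.78 (SE 0.13), lower in 4 of 4 libraries. Sorcs1 was lower than in oligodendrocytes by -3.26 (SE 0.21, adjusted p = 2.75e-52) and than in thalamic nuclei by -3.39 (SE 0.18, adjusted p = 2.48e-74). Sorcs3 was lower than in thalamic nuclei by -2.21 (SE 0.14). Sorcs2 exceeded inhibitory nuclei by 0.97 (SE 0.18) and oligodendrocytes by 1.35 (SE 0.28), while its difference of -0.10 from thalamic nuclei (SE 0.17, adjusted p = 0.722) did not pass but reached -0.48 (adjusted p = 0.000264) between clusters. Sort1 differed only where inhibitory nuclei were one side, and was lower there than in dentate granule by 0.65, read as dentate granule minus inhibitory (SE 0.16, adjusted p = 0.000223).

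**Figure D2:**
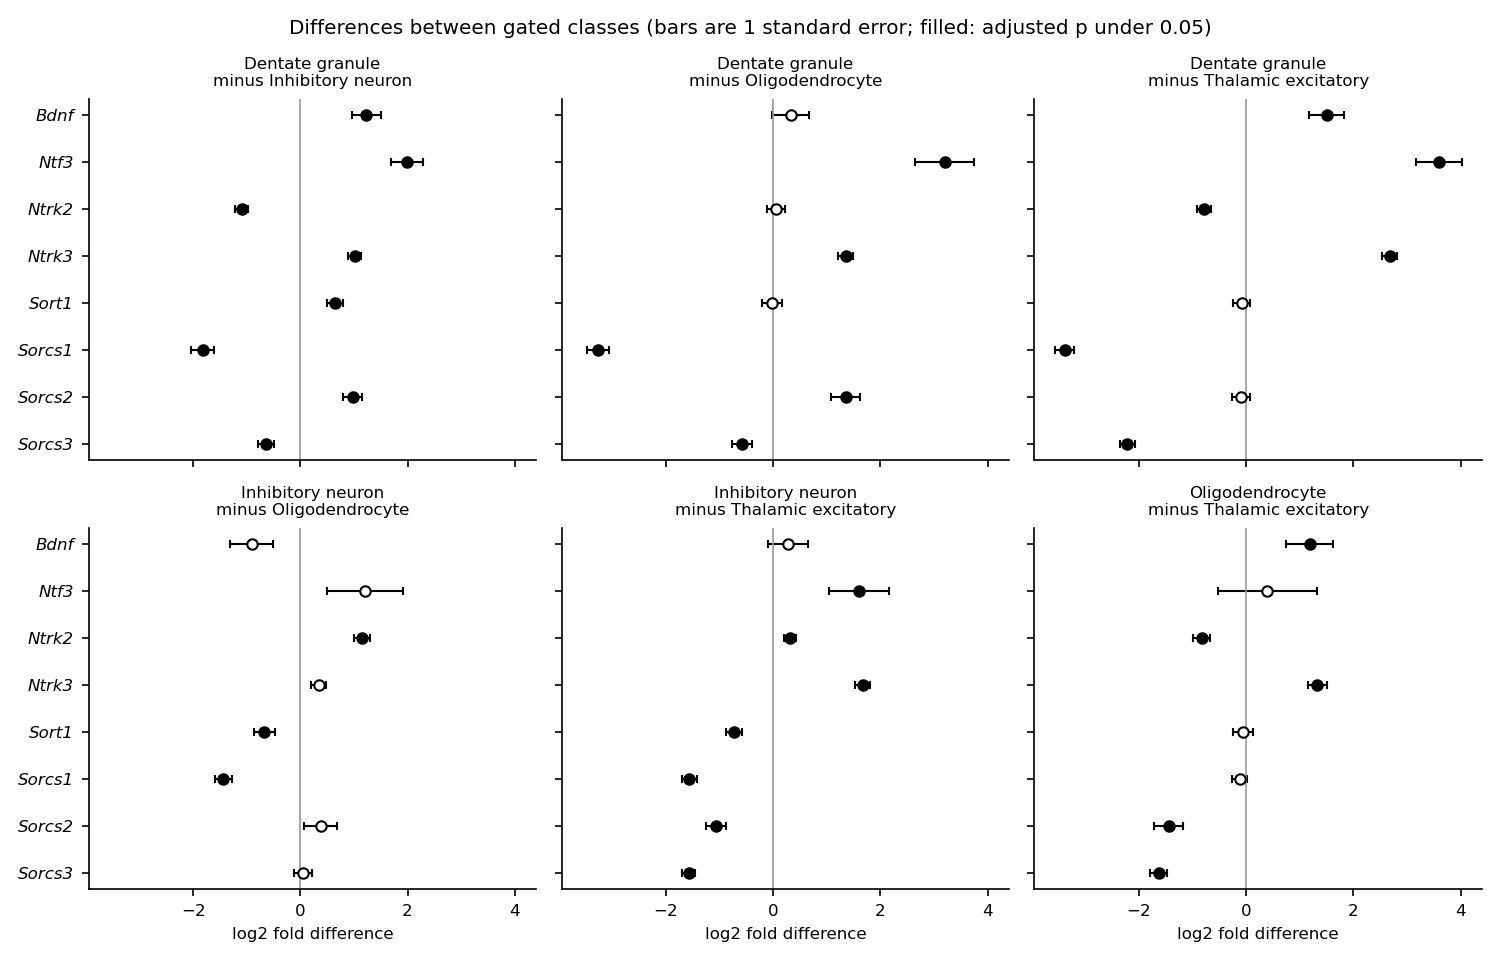
Differences between pairs of gated classes on the log2 scale (horizontal axis) with 1 standard error, 8 genes by row; filled points passed an adjusted p of 0.05. Ntf3 and Ntrk3 lie to the right and Sorcs1 and Sorcs3 to the left in the 3 upper panels, where dentate granule nuclei are the first class.

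Some of these calls were lost without 1 library or with the clusters in place of the gate. Bdnf in oligodendrocytes against thalamic nuclei (1.18, adjusted p = 0.0249) was lost without Trained replicate 2 (1.04), Untrained replicate 1 (1.12) or Untrained replicate 2 (1.07) and between clusters (0.26). Ntf3 in inhibitory against thalamic nuclei (1.61, adjusted p = 0.0177) was lost without the same libraries (1.31, 1.39 and 1.84) and with DESeq2 (1.69, adjusted p = 0.0554). Sorcs3 in dentate granule nuclei against oligodendrocytes (-0.58, adjusted p = 0.0118) and Ntrk2 in inhibitory against thalamic nuclei (0.31, adjusted p = 0.0310) were lost whichever library was left out, at -0.45 to -0.60 and 0.26 to 0.36, and between clusters, at -0.33 and 0.16. Sorcs3 in dentate granule against inhibitory nuclei (-0.63) was lost without Untrained replicate 1 (-0.45), and Sort1 in inhibitory nuclei against oligodendrocytes (-0.67) without Untrained replicate 2 (-0.57). Ntrk3 in inhibitory nuclei against oligodendrocytes (0.34) passed without Trained replicate 1 (0.41). Between clusters Sorcs3 was higher in inhibitory nuclei than in oligodendrocytes (0.50, adjusted p = 0.00325) and Sorcs1 lower in oligodendrocytes than in thalamic nuclei (-0.35, adjusted p = 0.0249).

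The inhibitory class joined 4 clusters, named here by a leading gene, in which the receptors differed. The Adarb2 cluster held Sorcs3 at 419, 683, 662 and 656 CPM, against 62.6 to 139 CPM in the Tll1 cluster. Sorcs1 was 223, 331, 496 and 320 CPM in the Adarb2 cluster and 51.7 to 101 CPM in the Tll1 cluster, again without overlap. Ntrk3 went the other way, with 898, 680, 623 and 926 CPM in the Tll1 cluster and 410 to 521 CPM in the Adarb2 cluster. Ntrk2 was 717 to 844 CPM in the Pde11a cluster and 530 to 552 CPM in the Adarb2 cluster. These differences were not tested.

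**Figure D3:**
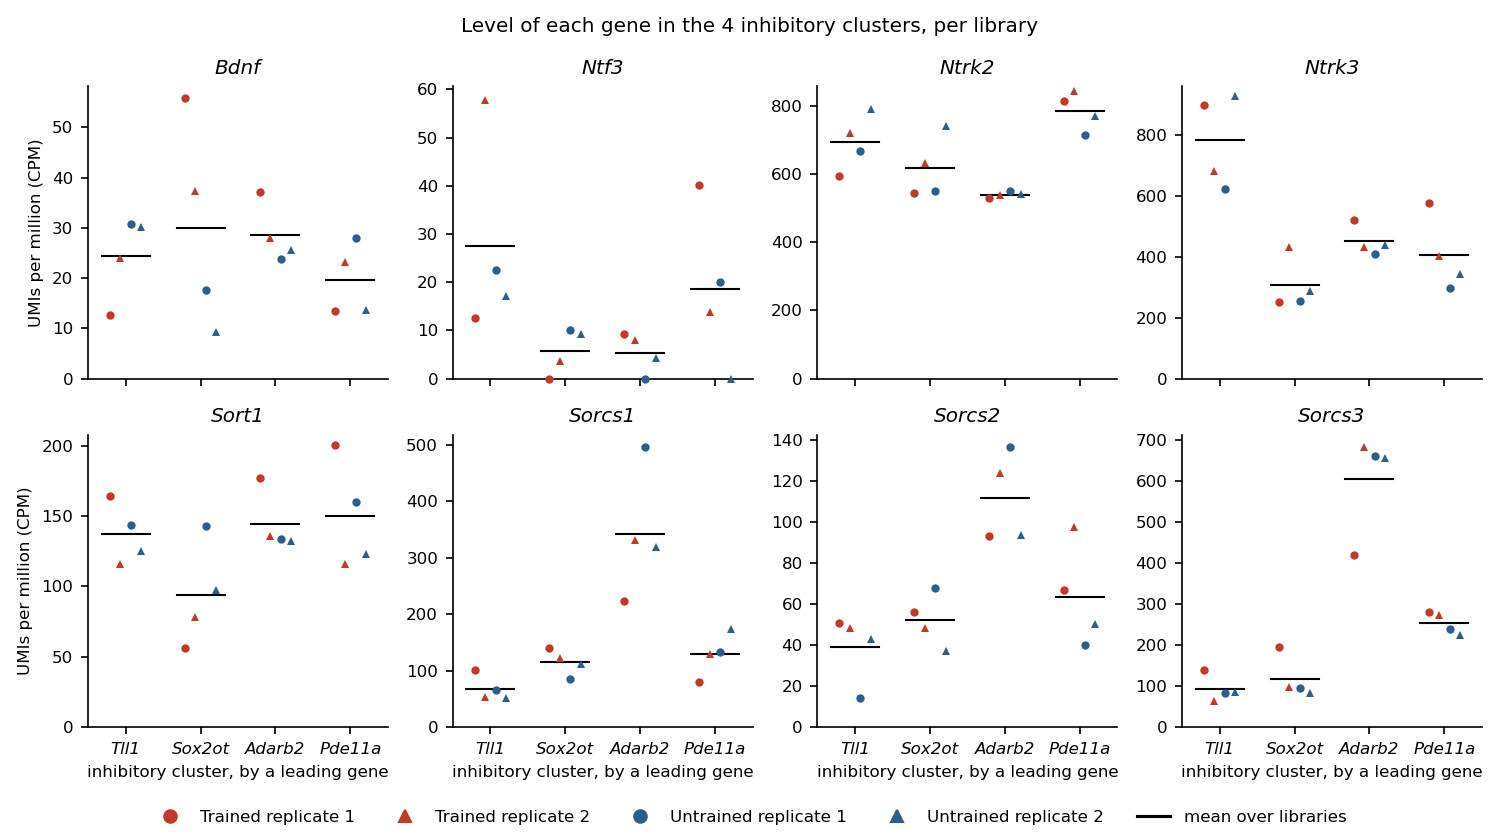
Level of each gene in CPM (vertical axis, linear from 0) in the 4 inhibitory clusters, each named by a leading gene on the horizontal axis; points are libraries and bars their mean. Sorcs3 and Sorcs1 are highest in the Adarb2 cluster and Ntrk3 in the Tll1 cluster.

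Barcodes with under 400 UMIs were summed as a measure of RNA outside intact nuclei, though they may hold RNA of nuclei too. Bdnf was higher in them than in nuclei of the same library, at 72.3, 76.2, 59.7 and 72.1 CPM against 52.1, 36.4, 40.4 and 36.3 CPM. The difference, nuclei minus low-UMI barcodes, was -0.80 on the log2 scale (SE 0.12, edgeR with a library block, adjusted p = 0.00032), and Bdnf was lower in nuclei in 4 of 4 libraries. Sort1 was also lower in nuclei, by -0.31 (SE 0.09, adjusted p = 0.0135), a call lost without Trained replicate 2 (-0.28), Untrained replicate 1 (-0.25) or Untrained replicate 2 (-0.29). Sorcs2 (1.48), Sorcs3 (1.28), Sorcs1 (1.20), Ntrk3 (1.20) and Ntrk2 (0.65) were higher in nuclei in 4 of 4 libraries, and Ntf3 did not differ by the test (0.08, adjusted p = 0.577). Of all 17923 genes tested, 75.8% were called, 36.8% being higher and 39% lower in nuclei, so that calls in either direction are common here.

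Bdnf in dentate granule nuclei (53.5 to 74.7 CPM) was near its level in low-UMI barcodes (59.7 to 76.2 CPM). Sort1 in low-UMI barcodes was 206 to 243 CPM, against means of 132 to 205 in the tested classes. Ntrk2 was 280 to 346 CPM in these barcodes and 300 to 409 in dentate granule nuclei, with means of 373 to 723 in the other tested classes. Free RNA can add counts to every class. After thinning to 600 UMIs, 4.60%, 3.51%, 3.46% and 3.01% of dentate granule nuclei held a Bdnf UMI, against 2.49%, 0.748%, 1.61% and 0.209% of thalamic nuclei. Without thinning the shares were 5.06% to 5.70% and 1.67% to 2.94%, at median depths of 688.5 to 917 and 760.5 to 1834.5 UMIs. The exact 95% intervals of the thinned shares did not overlap in Trained replicate 2 (2.76% to 4.39% and 0.204% to 1.90%), Untrained replicate 1 (2.77% to 4.26% and 0.880% to 2.68%) and Untrained replicate 2 (2.36% to 3.78% and 0.00530% to 1.16%), and overlapped in Trained replicate 1. These intervals cover counting error only. At the limit that defines nuclei, Bdnf in barcodes of 600 to 659 UMIs was 57.5, 56.5, 51.5 and 36.4 CPM, and in barcodes of 540 to 599 UMIs 45.8, 43.9, 54.2 and 47.9 CPM.

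**Figure D4:**
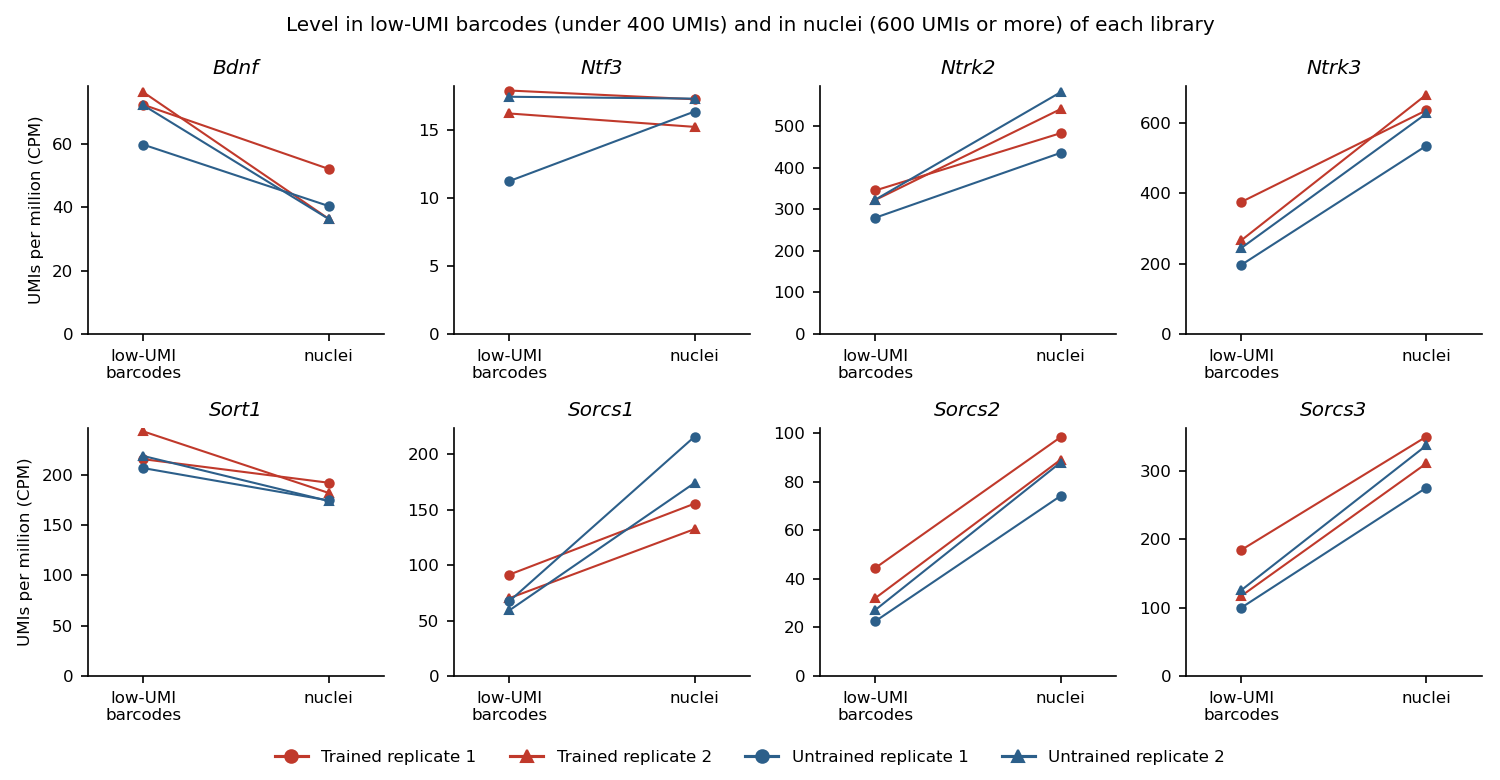
Level of each gene in CPM (vertical axis, linear from 0) in the low-UMI barcodes and the nuclei of each library, joined by a line. Bdnf and Sort1 fall from left to right in all 4 libraries, and Ntrk2, Ntrk3 and the 3 Sorcs genes rise.

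Training was compared class by class on summed counts, with 2 libraries a group (edgeR quasi-likelihood, trained minus untrained, Benjamini-Hochberg over all genes of the class). None of the 8 genes passed an adjusted p of 0.05 in any of the 8 classes or in all nuclei summed. Few other genes did: 0.00805% of 12418 tested in dentate granule, 0.00806% of 12410 in CA1, 0.0269% of 3714 in CA2, 0.0095% of 10522 in CA3, 0.00953% of 10497 in inhibitory, 0.0109% of 9216 in thalamic nuclei and 0% in astrocytes, oligodendrocytes and all nuclei. This was 1 gene a class, Ttr, the transport protein transthyretin made by the choroid plexus. At an unadjusted p under 0.05 there were 1 of 8 members in dentate granule beside 775 genes, 0 of 7 in CA1 beside 454 and 0 of 8 in CA3 beside 294. After the filter on low counts, Ntf3 was not tested in CA1, thalamic nuclei, oligodendrocytes and astrocytes, Bdnf not in CA2 and astrocytes, and Sorcs1 and Sorcs3 not in CA2. With 2 libraries a group, a p that misses the threshold does not show that a gene did not change.

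Libraries of the groups did not overlap for 2 of 8 members in dentate granule beside 36.2% of all genes, 4 of 7 in CA1 beside 33.4%, 1 of 8 in CA3 beside 29.6% and 3 of 5 in CA2 beside 30%. The same was so for 5 of 8 in inhibitory nuclei beside 34%, 1 of 7 in thalamic nuclei beside 30.7%, 3 of 7 in oligodendrocytes beside 35%, 1 of 6 in astrocytes beside 43.8% and 4 of 8 in all nuclei beside 37.7%. In CA1 the 4 were Bdnf, Ntrk3, Sort1 and Sorcs2, each higher in the trained libraries. The share of all CA1 genes in this direction alone is not given here. In CPM with TMM factors, the lowest trained and highest untrained library were 44.2 and 42.9 for Bdnf and 719 and 714 for Ntrk3. They were 212 and 195 for Sort1 and 24.7 and 24.3 for Sorcs2.

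In the fitted scale (CPM with TMM factors), Bdnf in dentate granule was 74.4 and 65.5 with training and 64.2 and 54.5 without. The trained libraries lay above the untrained ones, as did 17.6% of all genes tested, and the log2 change was 0.20 (SE 0.21, unadjusted p = 0.349). In CA1 the Bdnf change was 0.14 (SE 0.21) and in CA3 -0.12 (SE 0.34), where replicate 1 of each group was high (65.2 and 62.1) and replicate 2 low (32.8 and 36.9). Over all nuclei it was 0.21 (SE 0.17, unadjusted p = 0.252). Ntf3 differed by -0.20 (SE 0.22) in dentate granule and -0.04 (SE 0.48) in CA3. In CA2 Ntf3 was 41.3 and 48.5 with training and 89.2 and 96.8 without, from 5, 12, 12 and 16 UMIs. This difference of -1.01 (SE 0.45) had an unadjusted p of 0.0363 and did not pass the adjusted threshold, beside 14.6% of all genes with the trained libraries below.

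Ntrk2 in dentate granule was the member with the smallest unadjusted p among the 3 main neuron classes. It was 408 and 392.2 with training and 297 and 316 without, so the groups did not overlap. The change was 0.38 (SE 0.17, unadjusted p = 0.0321, adjusted p = 0.741), and in nuclei gated one by one it was -0.00015. In CA1 and CA3 Ntrk2 differed by 0.10 (SE 0.23) and 0.13 (SE 0.16), and over all nuclei by 0.04 (SE 0.17). The change in CA1 differed from that in dentate granule by -0.17 (SE 0.16) and the change in CA3 by -0.20 (SE 0.17), neither of which passed the interaction test. For Bdnf these differences were -0.02 (SE 0.26) and -0.41 (SE 0.28). None of the 24 interaction values (8 genes, 3 pairs of classes) passed, with a smallest adjusted p of 0.948, beside 0.0152%, 0.0076% and 0.0152% of all 13155 genes for CA1 against dentate granule, CA3 against dentate granule and CA1 against CA3.

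Ntrk3 differed by 0.06 (SE 0.17) in dentate granule, 0.18 (SE 0.15) in CA1 and 0.08 (SE 0.16) in CA3. In thalamic nuclei it was 322 and 190 with training and 179 and 179 without, a difference of 0.52 (SE 0.24, unadjusted p = 0.0453) that was 0.08 without Trained replicate 1. In astrocytes it was 701 and 501 against 366 and 291, a difference of 0.75 (SE 0.31, unadjusted p = 0.0253) from 34 nuclei in Trained replicate 1. Neither passed the adjusted threshold. The astrocyte class joined a cluster with 6, 77, 363 and 254 nuclei a library and another with 28, 64, 134 and 46. In the latter, Ntrk3 was 533.5, 412 and 533 CPM in Trained replicate 2, Untrained replicate 1 and Untrained replicate 2. In the former it was 246, 218 and 124 CPM in the same libraries. Astrocyte markers in the class summed to 3282 and 6306 CPM with training and 6335 and 6923 without. The part of this make-up in the astrocyte difference of Ntrk3 was not tested.

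Of the sortilin family, Sorcs1 in all nuclei had the smallest unadjusted p. It was 156 and 135 with training and 212 and 174 without, a difference of -0.41 (SE 0.15, unadjusted p = 0.0237, adjusted p = 0.792). In dentate granule, CA1 and CA3 the difference was 0.01 (SE 0.25), -0.07 (SE 0.25) and -0.05 (SE 0.33). In oligodendrocytes, where Sorcs1 is high, it was 253 and 309 with training and 389 and 408 without, groups that did not overlap, a difference of -0.48 (SE 0.28, unadjusted p = 0.102). In inhibitory nuclei the trained libraries also lay below (-0.13, SE 0.22), and in thalamic nuclei, where Sorcs1 is highest among the tested classes, the groups overlapped (0.05, SE 0.23). None of these passed the adjusted threshold. Oligodendrocytes made up 119 of 6019 and 301 of 12206 nuclei with training, and 595 of 16916 and 400 of 11969 without. Thalamic nuclei made up 884 and 535 of the same totals with training and 872 and 478 without. CA3 nuclei, where Sorcs1 is low (52.3 CPM on average), made up 1011 and 1517 with training and 738 and 582 without. An unnamed cluster of 1180 nuclei had 978 from Untrained replicate 1, and another of 1020 had 894 from it. Nuclei left unnamed, which are in the sum but in no tested class, made up 30.2% and 25.8% with training and 41.2% and 33.8% without. A sum over all nuclei does not tell fewer cells of a class from less RNA per cell. The part of these shares, and of the Sorcs1 level in unnamed nuclei, in the Sorcs1 difference was not tested. The oligodendrocyte class itself joined a cluster with 23, 108, 345 and 250 nuclei a library and another with 96, 193, 250 and 150. Oligodendrocyte markers in the class summed to 4677 and 4804 CPM with training and 5228 and 6348 without. The part of this make-up in the oligodendrocyte difference of Sorcs1 was not tested either. Sort1 differed by 0.05 (SE 0.17), 0.19 (SE 0.16) and 0.04 (SE 0.17) in dentate granule, CA1 and CA3. Sorcs2 differed by 0.03 (SE 0.20), 0.39 (SE 0.30) and -0.13 (SE 0.22), with 51.2 in Trained replicate 1 against 23.5 to 24.7 in the other CA1 libraries, and was 0.06 in CA1 without that library. Sorcs3 differed by 0.15 (SE 0.18), 0.04 (SE 0.17) and 0.20 (SE 0.18).

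**Figure D5:**
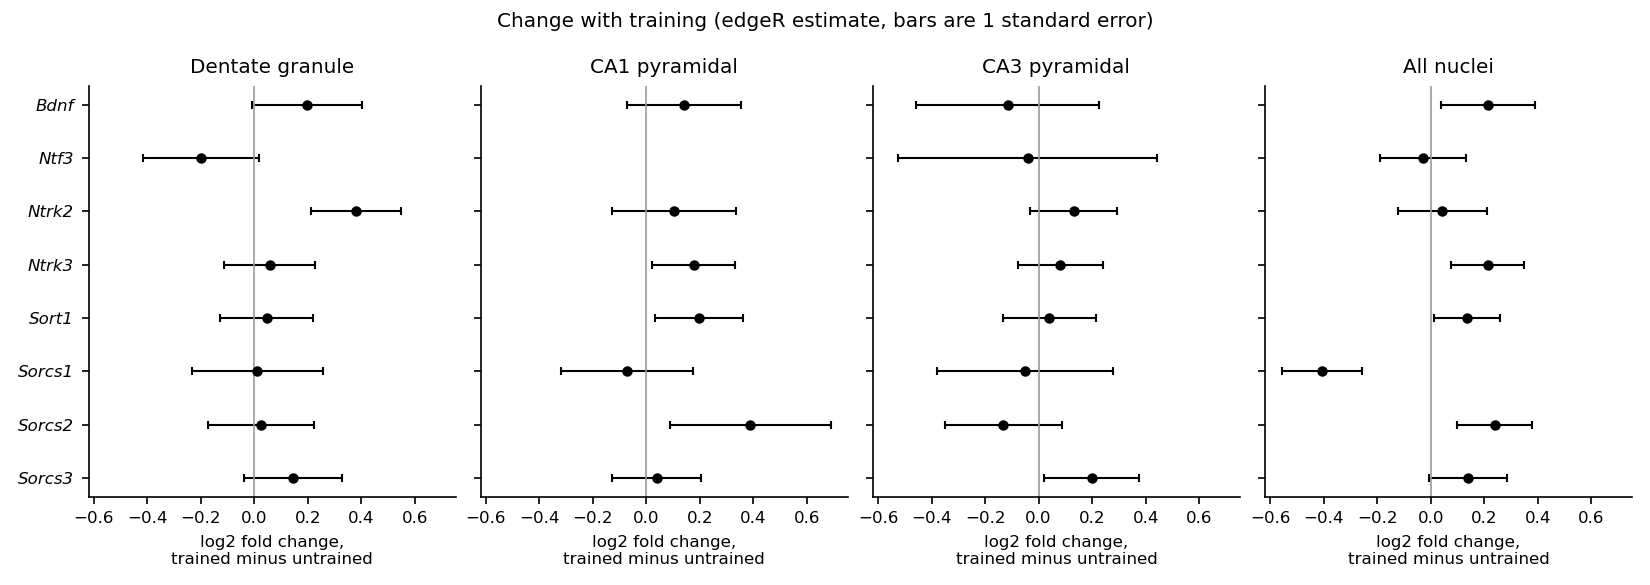
Change with training on the log2 scale (horizontal axis, trained minus untrained) with 1 standard error, for 8 genes by row in dentate granule, CA1 and CA3 nuclei and in all nuclei summed; no point is drawn for Ntf3 in CA1, which was not tested. None of the points passed the adjusted threshold, and the widest bar belongs to Ntf3 in CA3.

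The trained and untrained libraries also differed in measures other than these genes. The median mitochondrial share was 0.271% and 0.281% with training against 0.445% and 0.378% without, and the 9 choroid plexus markers (Ttr not among them) summed to 275 and 218 CPM against 120 and 138 CPM in dentate granule nuclei. In CA1 they summed to 326 and 204 against 125 and 136 CPM, and in CA3 to 236 and 155 against 87.4 and 97.6 CPM, with no marker at 0 in these classes. Depth differed as well, with a median of 736 and 887 UMIs per nucleus with training against 957.5 and 1079 without. Barcodes with at least 600 UMIs were 8.24% and 18.5% of all barcodes with training against 21.2% and 28.6% without. The part of any of these in the values above was not tested.

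Other genes of the pathway were read from 5 lists of 65 genes: maturation and release, other ligands and receptors, adaptors at Trk receptors, kinase cascades and nuclear regulators of Bdnf. None passed in any class. In dentate granule 57 were tested, 37 with a positive change, with a median of 0.14 against 0.00697 for all genes tested. In CA1 34 of 57 were positive (median 0.06 against -0.00728) and in CA3 31 of 56 (median 0.05 against -0.00496). In inhibitory nuclei 36 of 54 were positive (median 0.09 against -0.00781), in astrocytes 23 of 41 (0.08 against -0.04) and in oligodendrocytes 26 of 49 (0.03 against -0.01). CA2 had 17 of 34 (0.01 against -0.00123), thalamic nuclei 24 of 53 (-0.04 against -0.02) and all nuclei 46 of 61 (0.11 against 0.00283). Among the genes with the smallest unadjusted p-values in dentate granule were the small GTPase Hras (-0.62, SE 0.19, unadjusted p = 0.0039) and the repressor Rest (1.40, SE 0.60, unadjusted p = 0.0270). In CA1 they were Pcsk1, a convertase (0.74, SE 0.33), Plat, which encodes tissue plasminogen activator (0.63, SE 0.31), and the transcription factor Usf2 (0.37, SE 0.21). In CA3 they included Lingo1, a partner of p75 (0.39, SE 0.18), and the adaptor Sh2b1 (0.74, SE 0.37).

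The genes whose levels were most like each member were ranked by Pearson r over 45 class-by-library sums among 10374 genes, as a description, since sums of a library share its depth and mouse. For Bdnf these were Nrn1 (0.73), Prrt3 (0.70) and Abi2 (0.68), and for Ntf3 Dgkd (0.61), Nebl (0.57) and Acvr2a (0.56). For Ntrk2 they were Ctnnd2 (0.68), Sec24b (0.64) and Mast2 (0.62), and for Ntrk3 the receptor subunits Gabra2 (0.83) and Gria1 (0.77) and Sphkap (0.77). Sorcs1 was most like Lhfpl3 (0.83), Srgap1 (0.82) and Elmo1 (0.81), Sorcs2 like Cpne4 (0.75), Grid1 (0.73) and Il1rapl1 (0.73), and Sorcs3 like Epb41l4b (0.74), the potassium channel gene Kcnq3 (0.72) and Nell1 (0.67). Sort1 was most like Slc7a6 (0.64), Cyb5r4 (0.63) and Usp7 (0.62).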

How the data were processed

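The 4 libraries of mouse hippocampus nuclei were made with the Chromium 3' v3.1 kit, as the labels state. The authors deposited matrices of unnormalized UMI counts, made with Cell Ranger 7.0.0 per the file headers, while the submitters' processing notes name Cell Ranger 8, STAR and GRCm39. Whether intronic reads were counted is not given in the sources used here. The genes and lists were chosen with earlier results of these data known.

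Barcodes with at least 600 UMIs were kept. Scanpy 1.11.5 gave Scrublet scores, whose own threshold marked at most 0.282% of nuclei, so doublets were left in and the highest 8% removed as an alternative. Nuclei were clustered from 2000 variable genes (without the 8 genes and the pathway lists), 30 components and 20 neighbours with leidenalg 0.10.2 (resolution 1.5). A cluster of at least 20 nuclei took a class name at a mean log2 fold of 0.8 over its markers, with at least 3 markers above 0.5 and no other class with more markers among its top 10 genes by fold. Clusters with a mean of 0.5 for markers of the other side (neurons against the rest) were set apart as mixed. These thresholds were set after seeing the data, and 20 of 40 clusters were named, 16 unnamed and 4 mixed. A gate on each nucleus's markers was the first choice for the classes and left 376 to 2190 nuclei a library, with 3 CA1 nuclei in Trained replicate 1. It was therefore kept for the class differences and as an alternative for training and levels, and the clusters define the classes elsewhere.

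Counts were summed per class and library and tested with edgeR 4.0.16 in R 4.3.3 (filterByExpr, TMM, glmQLFit, glmQLFTest) with Benjamini-Hochberg adjustment at 0.05. DESeq2 1.42.0 was an alternative. Levels are CPM of the summed UMIs of a class, with no test. The fits were run on simulated counts with set changes larger than nearly all the training changes of the 8 genes. Those runs do not show whether changes as small as these would be found. Each library is taken as 1 mouse, as the design text and the numbered labels give 2 mice a group. The naming rule covers all 8 genes in every tested class. Training changes are printed for all tested members in dentate granule, CA1, CA3 and all nuclei. In the other classes they are printed for unadjusted p-values under 0.05, for genes whose libraries lay on opposite sides in 2 classes and for Sorcs1 in oligodendrocytes, inhibitory and thalamic nuclei, and the rest are counted. Of the pathway lists, the 3 genes with the smallest unadjusted p in dentate granule, CA1 and CA3 nuclei and any that passed are named, except 2 that are not reported here, and for each of the 8 the 3 most alike genes by Pearson r of log2(CPM + 20). The comparison of nuclei with low-UMI barcodes was added after seeing the data. Replicate numbers were not shown to pair samples: deviations from the group mean in replicate 1 correlated at -0.003 to 0.133 between groups over the 8 classes.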

Additional observations from a re-analysis of the deposited data

Results flagged for a closer look

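In 3 genes every trained library lay above every untrained one in 1 class and below in another, and the difference between these classes was not tested. Sort1 was higher with training in CA1 (log2 change 0.19) and lower in CA2 (-0.53). Ntrk2 was higher in dentate granule (0.38) and CA3 (0.13) and lower in CA2 (-0.15). Ntf3 was higher in inhibitory nuclei (0.69) and lower in CA2 (-1.01). None of these changes passed an adjusted p of 0.05 (edgeR). CA2, the class below in all of them, held 101 to 241 nuclei a library. Of all genes tested in these classes, 29.6% to 36.2% had libraries that did not overlap, in either direction. How many of all genes lay on opposite sides in this way was not counted, so the pattern is not shown to be particular to these genes.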

How the results depend on the processing

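None of 907 values of the 8 genes in 125 training fits (116 of them alternatives) passed an adjusted p of 0.05, with a smallest adjusted p of 0.0782, and none of 144 interaction values did. The sign of the 40 training changes given turned in 29 of 160 values with a library left out and in 19 of 333 others. The causes were not tested. Bdnf, Ntf3 and Sorcs1 rest on under 10 UMIs in each library of some classes, such as CA2 for Bdnf and Sorcs1 and CA1 for Ntf3. No value came from 1000 UMIs a nucleus for class differences and for training in astrocytes, CA1 and CA2, or from a stricter gate outside inhibitory nuclei, since too few nuclei were left. Of levels by class, 30 of 40 moved by less than 1 SD with at least 1000 UMIs and 20 of 32 with the gate.

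Counts of all genes called with training moved more. With DESeq2 there were 4 in all nuclei and 2 in CA3. With no count filter there were 159 in all nuclei, 0 in CA1, 2 in CA2, 4 in CA3, 0 in dentate granule and 5 in inhibitory nuclei. At least 1000 UMIs gave 1 in all nuclei, 4 in CA3 and 11 in dentate granule. Thinning to 600 UMIs gave 2 in CA1 and 11 in inhibitory nuclei, and a mitochondrial limit of 1% gave 2 each in CA2 and dentate granule. Removing probable doublets gave 1 in astrocytes, 3 in CA2 and 4 in inhibitory nuclei, and keeping mixed clusters gave 2 in astrocytes and 1 in oligodendrocytes. With 1 library left out there were 1 to 189 in all nuclei, 0 to 5 in astrocytes, 0 to 9 in CA1, 0 to 10 in CA2, 2 to 19 in CA3, 0 to 98 in dentate granule, 3 to 77 in inhibitory nuclei, 0 to 458 in oligodendrocytes and 1 to 17 in thalamic nuclei. The counts of 189, 98, 77, 458 and 9 came without Untrained replicate 2, those of 10, 19 and 17 without Trained replicate 2, and that of 5 without Trained replicate 1.

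The replicate number as a block (replicate block) gave 7 genes in CA1, 4 in CA2, 24 in dentate granule, 15 in inhibitory and 23 in thalamic nuclei, and none of the 8 genes. With 2 pairs and correlations of -0.003 to 0.133, the numbers were not shown to pair libraries. Under this block Ntf3 in CA3 turned to 0.031, Sorcs1 in CA1 to 0.042 and Sorcs2 in dentate granule to -0.026.

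Other training changes that turned were Bdnf (-0.11) and Sorcs2 (-0.41) in dentate granule and Ntf3 in all nuclei (0.025) and CA3 (0.36) with at least 1000 UMIs. After thinning, Ntf3 in all nuclei was 0.00829, Sorcs2 in CA3 0.033 and Sort1 in dentate granule -0.021. With gated nuclei, dentate granule gave -0.000154 for Ntrk2, -0.043 for Ntrk3 and -0.79 for Sorcs2. Sorcs1 in CA3 was 0.013 with DESeq2, 0.062 under the mitochondrial limit and 0.11 without probable doublets, which also turned Sorcs1 in inhibitory nuclei to 0.079. With no count filter, dentate granule gave -0.014 for Sorcs1 and -0.00273 for Sorcs2.

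With 1 library left out, Bdnf ranged from -0.029 to 0.46 in all nuclei and from -0.59 to 0.38 in CA3, and Ntf3 from -0.096 to 0.058 and from -0.28 to 0.28. Ntrk2 ranged from -0.16 to 0.27 in all nuclei and from -0.24 to 0.57 in CA1, and Ntrk3 from -0.072 to 0.26 in CA3 and from -0.092 to 0.17 in dentate granule. Sorcs1 ranged from -0.31 to 0.25 in CA1, from -0.62 to 0.50 in CA3, from -0.24 to 0.53 in dentate granule and from -0.26 to 0.33 in thalamic nuclei, and Sorcs2 from -0.34 to 0.12 in CA3 and from -0.23 to 0.33 in dentate granule. Sorcs3 ranged from -0.00718 to 0.30 in all nuclei and from -0.12 to 0.22 in CA1, and Sort1 from -0.055 to 0.15 in CA3.

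Without the library block, 0 genes were called in each of the 3 interaction tests and Ntrk2 in CA1 against CA3 was -0.023. With 1 library left out, 0 to 8 genes were called for CA1 against CA3, 1 to 14 for CA1 against dentate granule and 0 to 15 for CA3 against dentate granule, with 8 and 14 without Trained replicate 2 and 15 without Trained replicate 1. The Bdnf values in these pairs ranged from -0.096 to 0.67, from -0.12 to 0.086 and from -0.76 to 0.037, and those of Ntrk2 from -0.25 to 0.30 and from -0.55 to 0.21 in the pairs with CA1.

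Of the 34 class differences called, all kept their direction. DESeq2 kept 33 calls and the clusters 31, with 5 gained, while leaving out 1 library kept 29 to 32. Between clusters 3906 genes differed for dentate granule against inhibitory nuclei, 3164 against oligodendrocytes and 5195 against thalamic nuclei, and 2483 for inhibitory nuclei against oligodendrocytes, where 997 to 1670 did with 1 library left out (997 without Untrained replicate 2). The clusters turned Bdnf in inhibitory nuclei against oligodendrocytes to 0.038, and Ntrk2 and Sort1 in dentate granule against oligodendrocytes to -0.34 (adjusted p = 0.0301) and 0.12. With 1 library left out, ranges crossed 0 for Ntf3 (-0.60 to 0.66), Sorcs1 (-0.32 to 0.059) and Sort1 (-0.25 to 0.00393) in oligodendrocytes against thalamic nuclei, and for Sorcs3 in inhibitory nuclei against oligodendrocytes (-0.068 to 0.23). The same held for Sorcs2 (-0.27 to 0.13) and Sort1 (-0.14 to 0.12) in dentate granule against thalamic nuclei and for Sort1 against oligodendrocytes (-0.0295 to 0.12). None of these had been called.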
